A study of Mus musculus with 10 samples.

Results

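Htr2c, Slc6a4 and Lepr were the genes followed here, 3 of the 24538 genes in the count files. Htr2c encodes a serotonin receptor, Slc6a4 the serotonin transporter of the plasma membrane and Lepr the leptin receptor. They were selected on their read counts in these libraries, which were high in macrophages of normal lung and low in macrophages of lung metastases, and that difference is therefore given below as a description and without a test. RNA-seq was performed on 10 libraries of macrophages sorted from lungs of wild type C57BL6/J mice aged 8 to 10 weeks, 5 from metastases and 5 from normal lung. Metastasis-associated macrophages (MAMs) came from metastases that grew after E0771-LG cells, a breast cancer line of this mouse strain, were injected into a tail vein of females aged 6 to 8 weeks, and the metastases of 2 to 4 mice were pooled for a sample. Resident alveolar macrophages (RAMs) came from normal lungs without injected tumour cells. Both groups were sorted as large CD45+, F4/80+, LY6C-, MRC1+ cells, MAMs as CD11B+ CD11C- and RAMs as CD11B- CD11C+, and the transcription inhibitors alpha-amanitin and actinomycin D were present while the tissue of both groups was digested. Tissue, tumour and sorted subset therefore changed together between the groups, and their effects cannot be told apart.

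Serotonin is made from tryptophan by tryptophan hydroxylase and aromatic amino acid decarboxylase, acts on a family of cell surface receptors, is taken into cells by SLC6A4 and is oxidised by monoamine oxidase. In the body most of it comes from enterochromaffin cells of the gut and is carried by platelets, and the lung is known as a site where serotonin is cleared from blood by the endothelium. Receptors of the group to which HTR2C belongs couple through Gq to phospholipase C, which releases calcium from stores and activates protein kinase C. Leptin is secreted by adipocytes and acts through LEPR, a receptor of the cytokine class that works with the kinase JAK2 and the transcription factor STAT3 and is held in check by SOCS3 and the phosphatase PTPN1.

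All 3 genes lie on the forward strand of GRCm38. In GENCODE M21, Htr2c (ENSMUSG00000041380.13) spans chrX:146962513-147197277, and its longest coding transcript has 7 exons and 4883 bases. Slc6a4 (ENSMUSG00000020838.12) spans chr11:76998603-77032340, with 15 exons and 2796 bases in its longest coding transcript. The antisense gene Gm12343 overlaps an exon of it. The strand setting of the counting is not given, so reads from the opposite strand may be among those of Slc6a4. Lepr (ENSMUSG00000057722.17) spans chr4:101717404-101815352, with 19 exons and 5542 bases. Its 4 coding transcripts have 4 different ends, and counts per gene do not separate the long, signalling form of the receptor from its short forms. The 250 bases before the start of each gene are shown because the 3 genes had almost the same difference between the groups. They are RefSeq sequences of GRCm38.p6 on the forward strand, at chrX:146962263-146962512 for Htr2c, chr11:76998347-76998596 for Slc6a4 and chr4:101717157-101717406 for Lepr. Capitals mark the matches to the motifs named in the next paragraph.
Htr2c: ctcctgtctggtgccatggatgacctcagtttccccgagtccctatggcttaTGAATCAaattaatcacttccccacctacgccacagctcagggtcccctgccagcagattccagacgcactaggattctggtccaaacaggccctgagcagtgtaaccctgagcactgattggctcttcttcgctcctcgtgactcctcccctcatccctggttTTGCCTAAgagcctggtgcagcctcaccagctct
Slc6a4: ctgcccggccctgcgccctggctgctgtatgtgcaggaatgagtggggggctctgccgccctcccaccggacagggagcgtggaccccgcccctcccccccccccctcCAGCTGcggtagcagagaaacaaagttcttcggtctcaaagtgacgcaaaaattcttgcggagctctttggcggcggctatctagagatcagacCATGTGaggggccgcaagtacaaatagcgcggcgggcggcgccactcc
Lepr: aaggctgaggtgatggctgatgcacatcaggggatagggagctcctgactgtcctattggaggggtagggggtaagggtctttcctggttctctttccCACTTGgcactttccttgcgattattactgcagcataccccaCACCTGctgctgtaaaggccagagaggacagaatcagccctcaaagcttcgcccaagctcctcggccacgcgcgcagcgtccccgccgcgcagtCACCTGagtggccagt

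7 motifs were searched on both strands in these windows and in all 32851 promoter windows of that length. The Htr2c window held 1 match to the C/EBP motif TTNNGCAA, 34 bases before the start, and 1 match to the AP-1 motif TGANTCA, 198 bases before the start. Of all promoters, 9.56% held the C/EBP motif and 6.75% the AP-1 motif. The E-box CANNTG, found in 66.2% of promoters, had 2 matches in the Slc6a4 window and 3 in the Lepr window. None of the 3 windows held the PU.1 core GAGGAAGT (2.44% of promoters), the PPAR-RXR repeat (0.0335%), the glucocorticoid receptor motif ACANNNTGT (5.84%) or TATAAA (12.4%). Lepr has a further window in the RefSeq table, chr4:101717656-101717905, in which none of the 7 motifs was found. GC content was 55.6% for Htr2c, 64.8% for Slc6a4 and 58.4% for the Lepr window shown, against a median of 52.4%, and the windows held 5, 18 and 10 CpG sites against a median of 6. None of the 7 motifs was found in all 3 of the windows shown.

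Libraries held 50746305 to 87523247 reads counted on genes. Levels are given as read counts, as TMM-normalized counts per 1000000 reads on genes (CPM), and as FPKM, which also accounts for transcript length. FPKM is the scale used to compare levels between genes, except in marker lists. Sums over those lists and the genes named as leading them are on CPM, where longer transcripts weigh more. A count of 0 allows up to 3 counts, which is 0.0431 to 0.0671 CPM in these libraries. This limit and the intervals given below cover counting error only.

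Htr2c was at 76.5, 89.8, 86.9, 87.2 and 56.8 CPM in RAM replicates 1 to 5, from 2663 to 5981 reads, and at 0.671, 0.694, 1.16, 0.561 and 0.733 CPM in MAM replicates 1 to 5, from 31 to 52 reads. Every RAM library was far above every MAM library, RAM replicate 5 was the lowest of its group and MAM replicate 3 the highest of its group. The means were 79.4 ± 13.7 CPM in RAMs and 0.764 ± 0.232 CPM in MAMs (SD, n = 5 each), a log2 fold change of MAMs against RAMs of -6.71 (SE 0.22).

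Slc6a4 was at 187, 183, 195, 196 and 164 CPM in RAM replicates 1 to 5, from 7709 to 12216 reads. In MAM replicates 1 to 5 it was at 2.196, 1.78, 2.17, 1.57 and 1.42 CPM, from 87 to 108 reads. The RAM libraries lay close together and far above the MAM libraries, and replicate 5 was the lowest in either group. The mean was 185 ± 12.9 CPM in RAMs and 1.83 ± 0.348 CPM in MAMs (SD, n = 5 each), a log2 fold change of -6.67 (SE 0.14).

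Lepr was at 177, 235, 240, 189 and 260 CPM in RAM replicates 1 to 5, from 9052 to 15678 reads. In MAM replicates 1 to 5 it was at 1.36, 1.74, 2.59, 1.88 and 2.11 CPM, from 67 to 147 reads. The groups were again far apart, and the order of libraries within RAMs was not that of the serotonin genes, since replicate 5 was the highest for Lepr and the lowest for Htr2c and Slc6a4. The means were 220 ± 35.4 CPM in RAMs and 1.94 ± 0.456 CPM in MAMs (SD, n = 5 each), a log2 fold change of -6.83 (SE 0.18). The groups did not overlap for any of the 3 genes, which their choice fixed, and 44.9% of all tested genes had no overlap. In sorted cells in bulk, fewer cells that express a gene and less RNA of it per cell cannot be told apart.

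**Figure D1:**
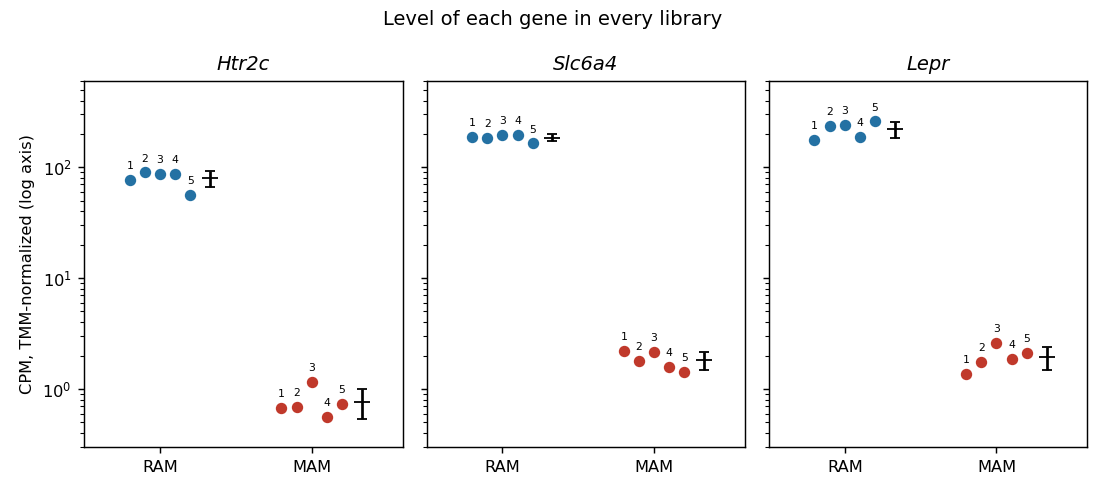
TMM-normalized CPM of Htr2c, Slc6a4 and Lepr in each of the 5 RAM libraries (blue) and 5 MAM libraries (red) on a log axis, numbered by replicate, with the mean and SD of each group as black bars. All RAM libraries lie above 50 CPM, and the MAM libraries lie between 0.561 CPM (Htr2c) and 2.59 CPM (Lepr).

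On the FPKM scale, Slc6a4 was the highest of the 3 genes in RAMs at 71.3 ± 4.87 FPKM, followed by Lepr at 41.0 ± 7.73 FPKM and Htr2c at 12.8 ± 1.95 FPKM (SD, n = 5 each). Their ranges over RAM libraries, 63.9 to 76.2, 32.3 to 48.9 and 9.55 to 14.6 FPKM, did not overlap. Among the 11571 genes tested, 92.6% had a lower mean FPKM in RAMs than Slc6a4, 86.4% a lower one than Lepr and 59.1% a lower one than Htr2c. The order was the same in MAMs at 0.717 ± 0.117 FPKM for Slc6a4, 0.414 ± 0.118 for Lepr and 0.138 ± 0.0387 for Htr2c (SD, n = 5 each), where only 5.46%, 3.18% and 1.24% of tested genes were lower. Slc6a4 was thus among the more abundant transcripts of RAMs, while Htr2c was near the middle of the tested genes there. Ordered by log2 fold change from the lowest, Lepr was number 39, Htr2c 48 and Slc6a4 51 of the 11571 genes, which restates how they were chosen.

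In MAMs the mean CPM of Htr2c was 0.962% of that in RAMs, with single MAM libraries at 0.706% to 1.46%. It was 0.987% for Slc6a4 (0.768% to 1.19%) and 0.881% for Lepr (0.619% to 1.18%). Of 6438 tested genes above 20 CPM in RAMs, 21 (0.326%) were below 1% in MAMs, and the lowest was at 0.580%. These 21 genes include Htr2c, Slc6a4 and Lepr. Their place near the lowest relative level of well expressed RAM genes restates how they were chosen.

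A list of 16 alveolar macrophage markers, set beside them, spread more widely. Its median was 6.01%, from 0.985% for Cidec, a lipid droplet protein, to 280% for the fatty acid binding protein Fabp5, which was higher in MAMs. The summed CPM of the list was 18929 to 21761 in RAMs and 2615 to 2699 in MAMs, and none of the 16 markers was at 0 in either group. 8 of the markers were below 2%, with a median of 1.10%: Cidec, Ear1, Krt79, Plet1, Car4, Chil3, Siglecf and Ear2, of which Ear1 and Ear2 have near-identical relatives that can share reads. Siglecf, the surface lectin used to define alveolar macrophages, was at 333 ± 35.6 CPM in RAMs and 3.85 ± 0.680 CPM in MAMs (SD, n = 5 each), or 1.16%. The median of these 8 markers in MAM replicates 1 to 5 was 1.07%, 1.05%, 1.27%, 1.02% and 0.963% of the RAM mean, highest in replicate 3, where Htr2c and Lepr were also highest, while Slc6a4 was highest in replicate 1. These 8 were taken for being below 2%. Whether the reads left in MAM libraries came from MAMs or from RAMs among the sorted cells was not tested.

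**Figure D2:**
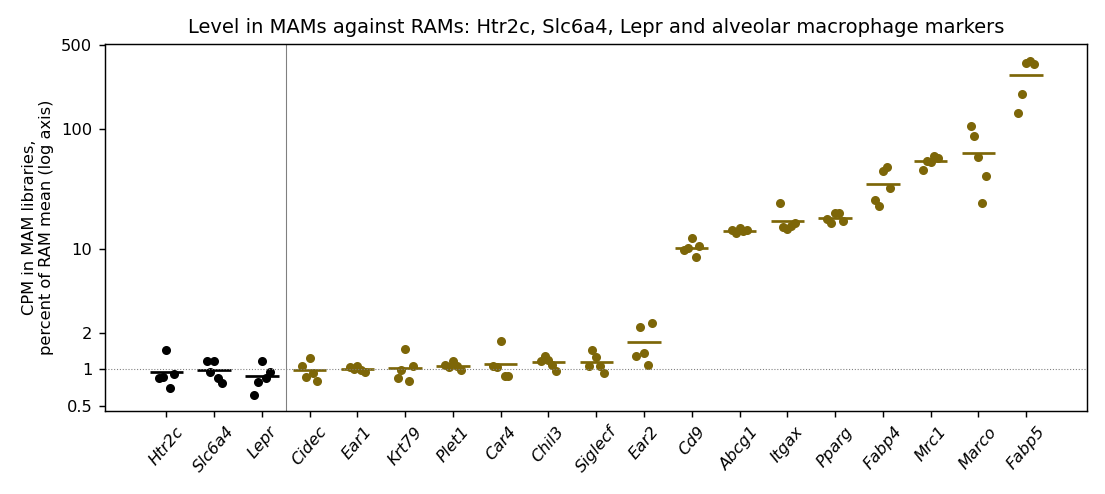
CPM in each of the 5 MAM libraries as a percent of the mean of the RAM libraries (log axis), for Htr2c, Slc6a4 and Lepr (black) and 16 alveolar macrophage markers (brown), with a line at each mean. The 3 genes lie at 0.881% to 0.987%, level with the lowest markers such as Cidec at 0.985%, while the highest marker, Fabp5, is at 280%.

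Within RAMs the 3 genes differed in how much replicates varied. The SD of log2 CPM over the 5 RAM libraries was 0.275 for Htr2c, 0.103 for Slc6a4 and 0.238 for Lepr. Among tested genes with a mean count within 2-fold of theirs, 90.8% of 3174 genes had a smaller SD than Htr2c and 93.4% of 1584 had a smaller SD than Lepr, but only 36.1% of 1839 had a smaller SD than Slc6a4. The highest RAM library was 1.58 times the lowest for Htr2c, 1.19 times for Slc6a4 and 1.47 times for Lepr. RAM replicate 5 set much of this spread for the serotonin genes, because without it the SD was 0.103 for Htr2c and 0.0472 for Slc6a4. For Lepr it stayed between 0.197 and 0.265 whichever RAM library was left out.

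The genes whose pattern over the 10 libraries was most like that of each gene were found by the root mean square difference of log2 CPM, after each gene was centred on its mean. Htr2c, Slc6a4 and Lepr were left out as candidates for each other. Nearest to Htr2c were the keratin gene Krt79 (0.182), the adaptor gene Grb7 (0.185) and the tight junction gene Cldn1 (0.218). Nearest to Slc6a4 were Cidec (0.138), the eosinophil-associated ribonuclease gene Ear1 (0.154) and Plet1 (0.164). Lepr was nearest to Prom1 (0.177), Grb7 (0.246) and Krt79 (0.247). Krt79, Cidec, Ear1 and Plet1 were in the alveolar macrophage list, and the distance between the groups makes up most of each pattern.

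Introns of Htr2c hold the genes of 5 microRNA hairpins that are counted apart from Htr2c, and none overlaps an exon of it. Reads on them were looked at after their values had been seen and are given without a test. Mir764 and Mir1912 had the most reads and are printed from RefSeq (GRCm38.p6, forward strand), with the mature arms given there in capitals. Mir764 lies at chrX:147002259-147002366 and Mir1912 at chrX:147009441-147009527, both in intron 2 of the coding transcript Htr2c-201, which has 6 exons.
Mir764: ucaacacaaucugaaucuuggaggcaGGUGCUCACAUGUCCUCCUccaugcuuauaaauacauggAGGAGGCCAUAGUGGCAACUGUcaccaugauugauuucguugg
Mir1912: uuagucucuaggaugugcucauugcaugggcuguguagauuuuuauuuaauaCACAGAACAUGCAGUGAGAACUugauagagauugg

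Mir764 had 29 to 118 reads per RAM library, 368 in all, and none in any MAM library, which gives a ratio of 124 against a floor of 3 counts over the group and is at least 101-fold lower in MAMs by the exact 95% counting limit. Mir1912 had 25 to 70 reads per RAM library, 237 in all, and 1 read in MAMs. Mir1264 had 75 reads in RAMs, Mir448 had 29 and Mir1298 had 7, and these had none in MAMs. The 5 hairpins together had 161, 230, 127, 117 and 81 reads in RAM replicates 1 to 5, which was 2.80% to 3.85% of the reads of Htr2c in the same library. MAM libraries had 1 hairpin read beside 204 reads of Htr2c, where the ratio in RAMs would give 6.80. All but 1 of these intronic reads were thus in the libraries with high Htr2c. The libraries were made from total RNA, and reads counted on a hairpin in them do not measure mature microRNA.

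**Figure D3:**
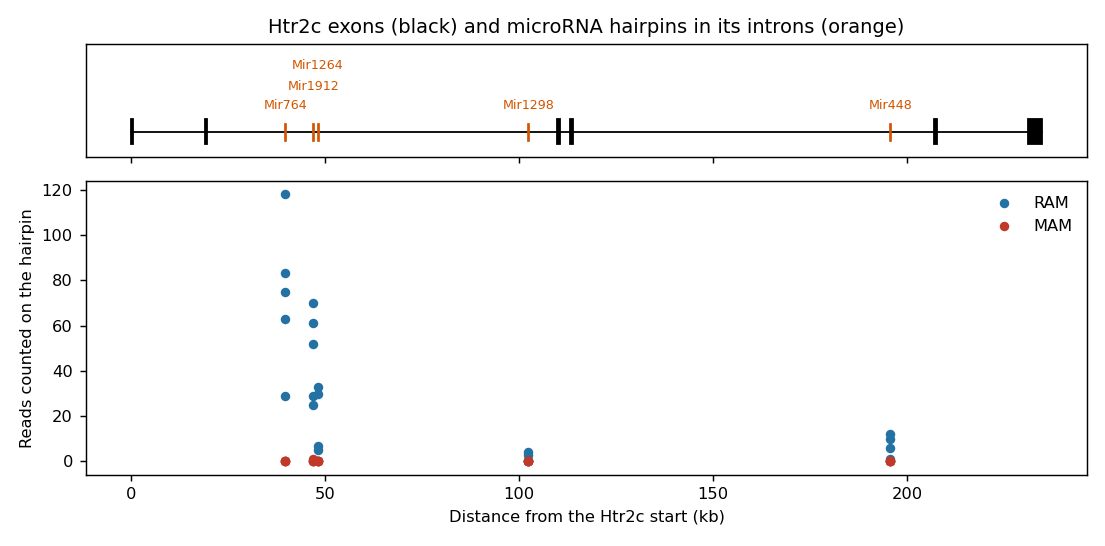
Exons of the coding transcript Htr2c-201 (black) and 5 microRNA hairpins in its introns (orange) by distance from the Htr2c start in kb, above the reads counted on each hairpin in each RAM (blue) and MAM (red) library. RAM libraries have up to 118 reads on Mir764 and up to 70 on Mir1912, and the 5 MAM libraries together have 1 read.

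The other genes of serotonin handling were taken as a list of 47, of which 23 passed the filter of a mean FPKM of at least 1 in either group. A gene was called where edgeR's quasi-likelihood test gave a Benjamini-Hochberg adjusted p below 0.05 over all genes and a fold change over 2. A gene that passed the filter through a single group could be called only as higher in that group. Of the 23, 14 (60.9%) were called, 8 higher and 6 lower in MAMs, whereas 30.3% of all 11571 tested genes were called, 15.3% higher and 15.1% lower. A further 4 passed the adjusted p with a fold change under 2, and 5 did not pass, while 56.2% of all tested genes passed the adjusted p alone. The median log2 fold change was 0.29, beside -0.02 over all tested genes. The tested genes around serotonin thus moved in either direction, and the lowest log2 fold change among them was -2.78, for Maoa. Among the called genes, Htr7, Prkcb, Itpr3 and Itgb3 passed the filter only through MAMs and Maoa only through RAMs.

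Among 13 other serotonin receptor genes, only Htr2b and Htr7 passed the filter. Both were higher in MAMs, but Htr7 passed only through MAMs (3.92 FPKM, against 0.0289 in RAMs), which fixed its direction. Htr7, whose receptor couples to Gs and adenylyl cyclase, had 601, 587, 673, 637 and 955 reads in MAM replicates 1 to 5 and 4, 4, 0, 3 and 5 in RAMs. This gave 12.7 ± 1.66 CPM in MAMs and 0.0595 ± 0.0382 CPM in RAMs (SD, n = 5 each), a ratio of 213 with a 95% counting interval of 131 to 372 and an adjusted p of 2.7e-09 by edgeR. Htr7 was thus near the limit of detection in RAMs, where Htr2c was high.

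Htr2b encodes a receptor close to HTR2C that also couples to Gq. It had 901, 753, 1022, 1283 and 1429 reads in MAMs and 291, 420, 224, 270 and 259 in RAMs, without overlap. Its log2 fold change was 1.87 (SE 0.20, edgeR adjusted p 1.4e-06), from 5.42 ± 0.641 CPM in RAMs to 19.8 ± 3.74 CPM in MAMs (SD, n = 5 each). Htr2b was thus higher in the group where Htr2c was low.

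The remaining receptor genes were low or undetected. Htr2a had 11, 102, 79, 2 and 0 reads in MAMs and 0 to 4 in RAMs, so its MAM reads came mostly from replicates 2 and 3. Htr5b had 41, 54, 50, 86 and 13 reads in RAMs and 0 to 22 in MAMs, and these ranges overlapped. Htr3b had 28 reads in MAM replicate 2, 9 in replicate 4 and none elsewhere. 5 genes, Htr1a, Htr1f, Htr3a, Htr4 and Htr5a, had no read in any library. On the FPKM scale the receptor order in RAMs was Htr2c at 12.8 ± 1.95, Htr2b at 1.74 ± 0.239 and Htr5b at 0.508 ± 0.344, with no overlap between neighbours. In MAMs it was Htr2b at 7.61 ± 1.72, Htr7 at 3.92 ± 0.535, Htr2a at 0.208 ± 0.252 and Htr2c at 0.138 ± 0.0387 (SD, n = 5 each), and the ranges of Htr2a and Htr2c overlapped. The most abundant receptor transcript was therefore Htr2c in RAMs and Htr2b in MAMs.

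**Figure D4:**
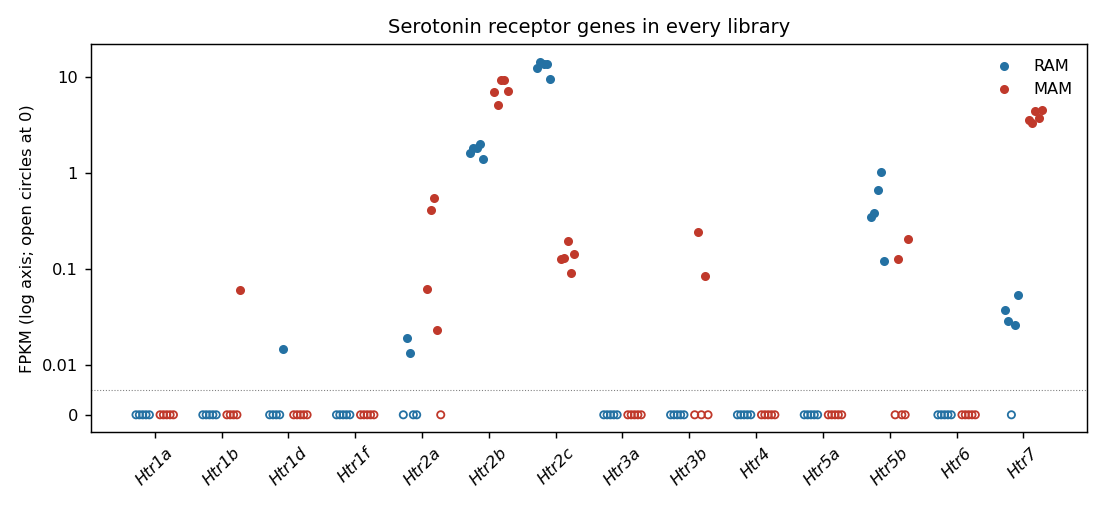
FPKM of Htr2c and 13 other serotonin receptor genes in each RAM (blue) and MAM (red) library on a log axis, with values of 0 as open circles on a separate line. Htr2c is the highest in RAMs (9.55 to 14.6 FPKM), Htr2b is the highest in MAMs (5.19 to 9.27 FPKM), and Htr7 lies at 3.29 to 4.50 FPKM in MAMs and at most 0.0532 FPKM in RAMs.

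No gene that makes serotonin passed the filter. Tph1, the tryptophan hydroxylase of peripheral tissues, had 41 reads in MAM replicate 2 and none in the other 9 libraries, and Ddc, the decarboxylase, had 47 reads in MAM replicate 3 and at most 6 in any other library. Tph2, the tryptophan hydroxylase of neurons, went the other way at low counts, with 20, 106, 39, 2 and 1 reads in RAM replicates 1 to 5 and 0, 0, 0, 1 and 0 in MAMs, so that its RAM reads came mostly from replicates 1 to 3. Genes for tetrahydrobiopterin, the cofactor of tryptophan hydroxylase that other enzymes also use, were expressed in both groups and did not move together. Gch1, the rate-limiting enzyme of its synthesis, was higher in MAMs at 83.6 ± 7.26 against 19.3 ± 1.90 CPM (log2 fold change 2.12), and Qdpr, which recycles the cofactor, was lower at 13.5 ± 2.86 against 44.4 ± 3.47 CPM (-1.72). Pts had a log2 fold change of -0.90, below the 2-fold limit, and Spr did not pass the test (0.29, edgeR adjusted p 0.48).

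After uptake by SLC6A4, serotonin can be stored in vesicles by SLC18A2 or broken down by monoamine oxidase. Slc18a2 was lower in MAMs, at 10.9 ± 0.693 against 26.9 ± 5.40 CPM in RAMs, a log2 fold change of -1.31 (SE 0.17, edgeR adjusted p 1.0e-05). Maoa, the monoamine oxidase that prefers serotonin, was lower as well, at 2.78 ± 1.53 against 19.2 ± 3.65 CPM, a log2 fold change of -2.78 (SE 0.37, edgeR adjusted p 1.1e-05). Aldh2, the aldehyde dehydrogenase that acts on the product of monoamine oxidase and on many other aldehydes, was higher in MAMs at 124 ± 8.57 against 33.9 ± 8.31 CPM (log2 fold change 1.87; SD, n = 5 each). Slc18a2 and Maoa, for storage and breakdown, were thus higher in RAMs, while Aldh2 was lower there. Maoa passed the filter only through RAMs, which fixed its direction. The direction of Slc6a4 and its larger difference were fixed by its choice. Maob and the low-affinity transporter genes Slc22a2, Slc22a3 and Slc29a4 did not pass the filter.

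Of 12 genes for steps after a Gq-coupled receptor, 11 were tested and 6 called, 3 in each direction, beside 30.3% of all tested genes, 15.3% higher and 15.1% lower. Gnaq, the Gq alpha subunit, was at 226 ± 19.5 CPM in MAMs and 228 ± 20.1 CPM in RAMs (SD, n = 5 each; log2 fold change -0.02, SE 0.08, edgeR adjusted p 0.88). The phospholipase gene Plcb2 was lower in MAMs (log2 fold change -1.92), while Plcb1 (-0.72) stayed under the 2-fold limit and Plcb3 did not pass (-0.09). Of the receptors that release stored calcium, Itpr2 was lower (-1.83, 326 ± 13.1 CPM in RAMs), and Itpr1 (1.94) and Itpr3 (3.31) were higher. Of the protein kinase C genes, Prkca was lower (-1.92) and Prkcb was higher at 251 ± 46.0 against 4.86 ± 2.53 CPM (5.70, edgeR adjusted p 5.0e-10). Itpr3 and Prkcb passed the filter only through MAMs, which fixed their direction. Among the calcium channels that passed in both groups, Itpr1 was thus higher in MAMs and Itpr2 in RAMs. The difference of Gnaq did not pass the test.

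Itgb3, an integrin subunit that binds the serotonin transporter and is abundant in platelets, was called higher in MAMs (log2 fold change 2.37, SE 0.78, edgeR adjusted p 0.017), but its groups overlapped, with 3.28 to 15.6 CPM in MAMs and 0.165 to 6.01 CPM in RAMs. Itgb3 passed the filter only through MAMs, which fixed its direction. Without RAM replicate 5 its log2 fold change was 3.25, and with the replicate number as a block it was 3.20. Tgm2, the transglutaminase that can attach serotonin to proteins, had a log2 fold change of 0.90, and the arrestin gene Arrb2 one of 0.82, both under the 2-fold limit.

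The leptin list held 28 genes besides Lepr, and 22 passed the filter. Of these, 9 (40.9%) were called, 4 higher and 5 lower in MAMs, beside 30.3% of all tested genes, 15.3% higher and 15.1% lower. A further 7 passed the adjusted p with a fold change under 2 and 6 did not pass. Of the called genes, Lifr passed the filter only through MAMs, which fixed its direction. The median log2 fold change was -0.02, the same as over all tested genes to this precision. Lep, the gene of leptin itself, had no read in any library.

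Leprot is encoded near Lepr, ending 58039 bases before its start, and its protein controls how much receptor reaches the cell surface. It was at 166, 134, 129, 115 and 134 CPM in RAM replicates 1 to 5 and at 149, 78.0, 97.8, 112 and 103 CPM in MAMs. The groups overlapped, and the log2 fold change was -0.33 (SE 0.15, edgeR adjusted p 0.071). This adjusted p depended on the fit and ran from 0.0048 without MAM replicate 1 to 0.18 without RAM replicate 1, and it was 0.021 with the replicate number as a block, while the change stayed under 2-fold. On the FPKM scale Leprot was at 74.6 ± 9.99 in RAMs and 59.3 ± 13.7 in MAMs (SD, n = 5 each), so that in MAMs its transcript remained abundant where that of Lepr was at 0.414 FPKM. The related gene Leprotl1 did not pass the test (log2 fold change 0.08, edgeR adjusted p 0.49).

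The signalling genes below the receptor were expressed in both groups. Jak2, the kinase bound to LEPR, was higher in MAMs at 182 ± 19.0 against 70.5 ± 6.97 CPM (log2 fold change 1.36, SE 0.10, edgeR adjusted p 1.1e-08), and Stat3 was higher by less than 2-fold (0.45). Stat5a was lower in MAMs at 34.3 ± 8.19 against 76.6 ± 6.79 CPM (-1.16). Irs2, an adaptor shared with the insulin receptor, was lower at 58.9 ± 9.82 against 141 ± 19.2 CPM (-1.26; SD, n = 5 each). Among inhibitors, Socs3, which blocks JAK2 after leptin and other cytokines, was at 68.4 to 116 CPM in MAMs and 1.88 to 6.58 CPM in RAMs (log2 fold change 4.43, SE 0.30, edgeR adjusted p 5.9e-09). Cish, an inhibitor of STAT5 signalling, went the other way at 11.7 ± 5.29 against 32.5 ± 3.01 CPM (-1.48). The phosphatase gene Ptpn1 did not pass (0.21, edgeR adjusted p 0.11).

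Receptors of the same class as LEPR differed in direction. Lifr, the receptor of leukaemia inhibitory factor, was higher in MAMs at 70.1 ± 14.7 against 1.13 ± 0.338 CPM (log2 fold change 5.94, SE 0.24, edgeR adjusted p 1.8e-11). Its direction was fixed, since it passed the filter only through MAMs. Il6st, the shared signalling chain of the interleukin-6 family, was lower at 232 ± 14.4 against 484 ± 66.4 CPM (-1.06, edgeR adjusted p 1.4e-07), and Il6ra was under the 2-fold limit (-0.29; SD, n = 5 each). Csf3r, the receptor of granulocyte colony-stimulating factor, was called higher (1.09, edgeR adjusted p 0.00013), but without MAM replicate 4 its log2 fold change was 0.92 and without RAM replicate 4 it was 0.98, under the limit. Csf3r is also in a list of neutrophil and eosinophil markers. The summed CPM of that list, 102 to 228 in MAMs and 50.2 to 83.3 in RAMs, was nearly all Csf3r itself. This did not hold on the FPKM scale. There Csf3r was at 32.1 in MAMs and 15.4 in RAMs, S100a8 at 17.8 and 8.47, and S100a9 at 10.5 and 1.09. Of the other genes of that list, S100a8 was at 4.12 CPM in MAMs and 1.89 in RAMs and S100a9 at 3.88 and 0.3497, Ly6g was at 0 in RAMs, and Elane and Prg2 were at 0 in every library, and the part of such cells in this result was not tested. Of the adiponectin receptors, Adipor2 was lower in MAMs at 89.5 ± 8.72 against 672 ± 54.3 CPM (-2.91, edgeR adjusted p 7.6e-13), and Adipor1 did not pass (-0.12, edgeR adjusted p 0.32). After Lepr, Adipor2 had the lowest log2 fold change of the leptin genes.

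**Figure D5:**
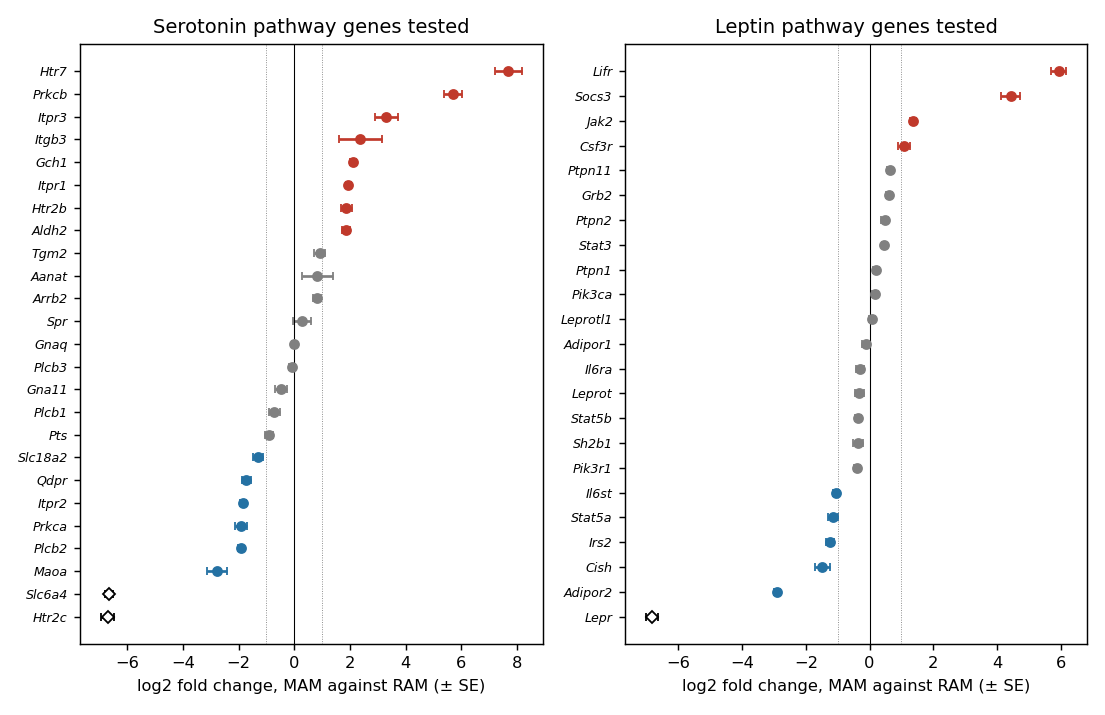
Log2 fold change of MAMs against RAMs with its SE for the tested genes of the serotonin list (left) and leptin list (right), red where called higher, blue where called lower and grey where not called, with dotted lines at a 2-fold change. Htr2c (-6.71), Slc6a4 (-6.67) and Lepr (-6.83) are open diamonds without a test, and the lowest other values are -2.78 for Maoa and -2.91 for Adipor2.

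Markers of other cells were set beside Htr2c, Slc6a4 and Lepr, as these genes are also known from platelets, endothelium, neurons and epithelium. Summed levels of platelet and mast cell markers went the other way, each carried by few genes. 8 platelet and megakaryocyte markers summed to 13.8 to 18.2 CPM in RAMs and 351 to 1048 CPM in MAMs, with Gp1bb and Gp6 at 0 in RAMs, and the sum was carried by Pf4, at 6.24 CPM in RAMs and 565 CPM in MAMs, and Ppbp, at 2.29 and 148 CPM. The platelet genes Itga2b (3.34 CPM in RAMs and 1.68 in MAMs), Gp1ba (2.49 and 0.978) and Gp9 (0.880 and 0.809) had lower means in MAMs, with groups that overlapped. 10 mast cell and basophil markers summed to 0.480 to 1.56 CPM in RAMs, where 7 of them were at 0, and to 18.4 to 21.4 CPM in MAMs, mostly from Hdc, the only gene of that list that was tested. Pf4 and Ppbp were therefore high in the group where Itgb3 was high, while Itga2b, Gp1ba and Gp9 were not, and the part of platelets in the Itgb3 result was not tested.

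Some markers of endothelium, neuroendocrine cells and epithelium were higher in RAMs. 8 endothelial markers summed to 127 to 214 CPM in RAMs and 28.4 to 114 CPM in MAMs, and 4 of them were tested, of which 1 was called lower and 3 higher in MAMs (15.1% and 15.3% over all tested genes). The sum in RAMs was mostly Vwf, at 151 CPM against 19.3 CPM in MAMs. 7 neuroendocrine and neuronal markers summed to 17.3 to 30.9 CPM in RAMs and 2.71 to 11.4 CPM in MAMs, led by Syp at 20.02 CPM in RAMs, and Calca and Snap25 were at 0 there. 8 alveolar epithelial markers summed to 74.6 to 141 CPM in RAMs and 22.6 to 40.9 CPM in MAMs, led by Epcam at 76.8 against 0.652 CPM. 7 tumour epithelial markers summed to 440 to 568 CPM in RAMs and 5.27 to 22.7 CPM in MAMs, led by Krt19 at 436 CPM, while 4 of the 7 had higher means in MAMs: Krt8 (1.48 against 0.0453 CPM), Krt18 (1.81 against 0.119), Krt7 (0.520 against 0.124) and Krt14 (0.107 CPM against 0 in RAMs). Krt5 was at 0 in every library. Chga (0.420 against 3.87 CPM in RAMs) and Scgb1a1 (0.752 against 10.4) were also called lower in MAMs. So were Sftpb (0.526 against 4.28) and Sftpc (4.03 against 14.4, with groups that overlapped). Of the tested markers, 2 of 3 neuroendocrine, 4 of 6 alveolar epithelial and 2 of 3 tumour epithelial genes were called lower. Epcam is in both epithelial lists and entered both sums and both counts. The 2 tumour epithelial genes called lower were Epcam and Krt19. Called higher were 1 neuroendocrine gene, Tubb3, and 1 alveolar epithelial gene, Hopx. Chga, Sftpb and Epcam passed the filter only through RAMs and Tubb3 only through MAMs. The 3 endothelial genes called higher, Pecam1, Cdh5 and Kdr, also passed only through MAMs. For these genes the filter fixed the direction of a call. The part of such cells in the result was not tested.

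The 12 markers of monocyte-derived macrophages were all called higher in MAMs, beside 15.3% of all tested genes, with a sum of 14531 to 16706 CPM against 482 to 653 CPM in RAMs, led by the sorting marker gene Itgam. Cx3cr1 and Ly6c2 passed the filter only through MAMs, which fixed their direction, and Itgam encodes CD11B, on which the groups were sorted apart. The level of the 12 markers in RAMs was 0.892% to 24.7% of that in MAMs, with a median of 2.01%. Stromal markers summed to 0.393 to 6.61 CPM in RAMs and 3.52 to 41.0 CPM in MAMs, and lymphocyte markers to 4.95 to 19.2 and 13.8 to 26.4 CPM, led by Col3a1 and Cd4.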

How the data were processed

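Macrophages were sorted from lung metastases (MAMs, 5 samples) and from normal lungs (RAMs, 5 samples), and the sample labels gave the groups. Per the study's methods and the submitters' processing notes, the authors built libraries from total RNA with the Ovation RNA-Seq System V2 kit, aligned reads to GRCm38 with TopHat2 2.0.13, used HTSeq 0.6.1 to count reads that mapped uniquely to each UCSC RefGene gene model and ran DESeq2 1.6.3. The strand setting of the counting is not given in the sources used here. The authors deposited whole-number counts for each library and a table of FPKM values from Cufflinks 2.2.1, scaled by transcript length and mapped fragments. Lines that name no gene held 54.6% to 64.1% of a count file and entered neither library sizes nor tests.

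Genes whose mean FPKM reached 1 in MAMs or RAMs were tested on the counts with edgeR 4.0.16 (R 4.3.3) by the quasi-likelihood test with TMM normalization, no covariate and Benjamini-Hochberg adjustment over 11571 genes. CPM are TMM-normalized counts per 1000000 reads on the genes tested, and log2 CPM used a prior count of 2. The fits were tested on simulated counts with known changes. Alternatives were RLE and upper-quartile scaling, no filter, filterByExpr, DESeq2 1.42.0, limma 3.58.1 on log2(FPKM + 1) and log2(FPKM + 0.1), the replicate number as a block, and each library left out in turn. Replicates of a group differed by far more than sampling noise (a chi-square of at least 41.0 per gene), so none was counted as a repeat of another. The samples are given as separate mice or pools of mice, and p-values measure only the spread between these samples.

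The 3 genes and the serotonin, leptin and marker lists were chosen with earlier results of these data known. The rule for naming genes took the 3 genes, every called list gene, other serotonin receptor genes with a mean over 3 counts in a group and Leprot. It also took the 3 other genes nearest in pattern to each of the 3 and the lowest and highest alveolar macrophage marker. From each other marker list it took the most abundant gene by mean CPM. Other genes were named after their values were seen. Positions came from GENCODE M21 on GRCm38, promoters and hairpins from RefSeq tables of GRCm38.p6. The 95% counting intervals are exact. Tables and plots were made in Python 3.11.15 with matplotlib 3.10.9.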

Additional observations from a re-analysis of the deposited data

Results flagged for a closer look

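For Htr2c, Slc6a4, Lepr, the called list genes, Leprot and the other detected receptor genes, 59 groups of 5 libraries in all, the distance of the highest or lowest library from its nearest neighbour was compared with the range of its group by Dixon's limit for 5 samples. Chance alone passes this limit in about 1 of 20 groups, and 4 passed it. Htr2c was at 1.16 CPM in MAM replicate 3, with the other MAM libraries at 0.561 to 0.733 CPM. Maoa was at 25.5 CPM in RAM replicate 5, above 16.2 to 18.3 CPM in the other RAM libraries. Itpr1 was at 218 CPM in MAM replicate 2, above 157 to 171 CPM in the others. Cish was at 27.3 CPM in RAM replicate 2, below 32.7 to 34.7 CPM in the others. Each of these libraries was on the same side of the other group as the rest of its own group.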

How the results depend on the processing

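The log2 fold changes of Htr2c, Slc6a4 and Lepr kept their sign under all 18 alternatives. They were smaller in limma on log2(FPKM + 1), at -3.59, -5.40 and -4.88, and on log2(FPKM + 0.1), at -5.76, -6.46 and -6.33, since a pseudocount shrinks the change of genes near 0. With single libraries left out they ran from -6.89 to -6.62, -6.75 to -6.59 and -6.94 to -6.73. Leaving out a library gave 3384 to 3495 called genes beside 3511, 14 to 15 in the serotonin list and 8 to 9 in the leptin list. Of the called list genes and Leprot, 24 in all, 22 kept their call and direction in every alternative. Slc18a2 stayed under 2-fold in limma on log2(FPKM + 1) (-0.81), and so did Csf3r there (0.99) and under upper-quartile scaling (0.93), which moved the median of all genes by -0.16 on the log2 scale. The replicate numbers did not pair the samples: deviations of same-numbered libraries correlated at -0.03 to 0.06, and 1 of 5 numbers matched best with itself. The fit with the replicate number as a block called 3526 genes, 14 in the serotonin list and 9 in the leptin list, and changed no call of a named gene. It moved Itgb3 from 2.37 to 3.20, as did leaving out RAM replicate 5 (3.25), and it took the adjusted p of Leprot, still under 2-fold, from 0.071 to 0.021. Leprot also passed 0.05 under upper-quartile scaling (0.0095), without MAM replicate 1 (0.0048) and without RAM replicate 4 (0.045). Values from few reads are less precise, such as Htr2c in MAMs (31 to 52 reads per library), the hairpins and the receptor genes below the filter.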
